A study of Mus musculus with 6 samples.

Results

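Sarcomere and excitation-contraction genes encode the contractile filaments of striated muscle, the discs and bands that anchor them, and the proteins that release, store and recapture the calcium that starts contraction. The list described here holds 34 such genes, taken by gene symbol, with the myosin heavy chains left out, and all 34 were found among the 33924 genes of the deposited table.

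The RNA came from RPE/choroid, the pigmented epithelium behind the retina together with the vascular coat beneath it, of C57BL/6J mice, for which the labels name no other allele and no treatment. There were 3 libraries from young mice, labelled 1 to 2 months old, and 3 from aged mice, labelled 20 to 24 months in the titles and 22 to 24 months in the time label. The labels call every mouse male, but the published methods speak of both sexes and give the young mice a higher age. Each library came from a pair of eyes, and a stranded protocol was used on RNA that had been depleted of ribosomal RNA but not selected for poly(A) tails.

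The tissue was freed of the outer eye muscles by dissection and then scraped off the sclera, so striated muscle is not one of its own cell types. The muscles that move the eye insert on the sclera, and how much of them remained on the eyecups was not measured here. In bulk RNA, fewer cells of a type and less RNA per cell cannot be told apart.

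Every level below is the authors' mean over all 6 libraries, in normalized counts, and it pools young and aged mice. The table gives no value per mouse, so no level has an SD, no range over mice can be shown, the depth per library is unknown, and no difference between 2 genes could be tested against the spread between replicates. The other columns of the table hold the authors' own comparison of young and aged mice and were not used, so nothing is said about age. Because a long transcript collects more reads than a short one at the same number of molecules, levels of different genes are compared per kilobase (kb) of coding length, the longest coding sequence annotated for the gene. This takes the deposited values as not yet divided by length. The study calls the values read counts, and its methods state that they were made from TPM values, a measure of transcript abundance that is divided by length, without describing a step that puts length back. If length was not put back, a level per kb is divided by length again, and the totals as given are the levels per length.

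In skeletal muscle, thin filaments of actin slide along thick filaments of myosin. Troponin and tropomyosin on the thin filament keep the fibre relaxed until calcium leaves the sarcoplasmic reticulum through the ryanodine receptor, and a calcium pump then returns it to the store. Many of these proteins exist in a fast form and a slow form, encoded by different genes, and the slow form is often also the form of the heart. Muscles of the eye hold several fibre types side by side.

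Genes of this kind were plainly present. All 34 had a mean of at least 10 normalized counts, 24 had at least 1000, 7 lay between 100 and 1000, and 3 lay under 100. Among the 26681 genes of the table with a mean above 0, the median was 82.1 normalized counts, and 31 of the 34 lay above it. The 90th percentile of those genes was 1699.6 normalized counts, and 22 of the 34 lay above it. The remaining 12 were spread over the lower range down to Tnnc2. At 11.3 normalized counts, Tnnc2 had rank 17668 among the 33924 genes, so many genes outside the list also reached the limit of 10.

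Together the 34 genes held 325589 of the 19192071 normalized counts summed over the table, which is 1.7%. Ttn, the gene of the giant elastic protein titin, supplied 49.2% of the 325589 with 160212.6 normalized counts and was the gene of rank 4 in the whole table. Its coding length is 106 kb, spread over 347 exons on chromosome 2 at 76703980 to 76982547 (GRCm38). Per kb it stood at 1516.6 normalized counts and was number 14 of the 34. Without Ttn the share of the list was 0.862%. Per kb of coding length, among coding genes, the share with Ttn was 1.08%.

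The window upstream of the start site was read for the members that stand highest, because many muscle promoters carry the E-box CAGCTG, a sequence that myogenic factors such as MyoD can bind. RefSeq promoter windows on GRCm38.p6 were matched for 26 of the 34 genes, with 31 windows in all, and the 250 bases upstream of each start site were searched on both strands. Stretches around the E-box are shown for the 4 members with the highest level per kb among those where the stretch overlaps no exon that GENCODE annotates for the gene, on the strand of the gene, with the E-box in capitals.

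Mylpf (chr7:127211532-127211587, plus strand): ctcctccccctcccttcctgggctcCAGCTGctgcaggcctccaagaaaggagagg
Acta1 (chr8:123894966-123895021, minus strand): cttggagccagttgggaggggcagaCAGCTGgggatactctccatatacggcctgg
Ckm (chr7:19410844-19410875, plus strand): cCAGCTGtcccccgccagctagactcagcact
Mb (chr15:77022890-77022945, minus strand): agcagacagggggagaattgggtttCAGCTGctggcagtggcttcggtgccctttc

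The E-box began 51 bases upstream of the RefSeq start site in Mylpf, 221 in Acta1, 249 in Ckm and 133 in Mb. GENCODE annotates further starts for some genes, so the stretches of Mylpf, Ckm and Mb lie inside the outer GENCODE bounds of these genes, and that of Acta1 lies upstream of them. CAGCTG was found in 16 of the 31 member windows (51.6%) and in 4271 of all 32851 windows (13%). The letters TATAAA of the TATA box, the other motif searched, were found in 5 member windows (16.1%) and in 12.4% of all windows. The 14 members with the E-box had a median level of 5518.5 normalized counts per kb and ran from 29.1 (Mybph) to 24443.8 (Mylpf). The 12 matched members without it had a median of 564.8 and ran from 23.6 (Tnnc2) to 1516.6 (Ttn). Tnni2, Tnnt3, Tcap and Myoz1, at 14493.7, 13988.2, 7071.5 and 2026.4 per kb, had no matched window and are in neither group. The medians were not taken on the totals as given, where Ttn, without the E-box, was the highest member. Over all coding genes with a window and a mean above 0, the medians were 217.3 for the 1908 with CAGCTG and 246.2 for the 10745 without it. For TATAAA these medians were 547.2 for the 5 members with it and 654.3 for the 21 without it. A match is a description of the letters and does not show that a factor binds there.

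**Figure D1:**
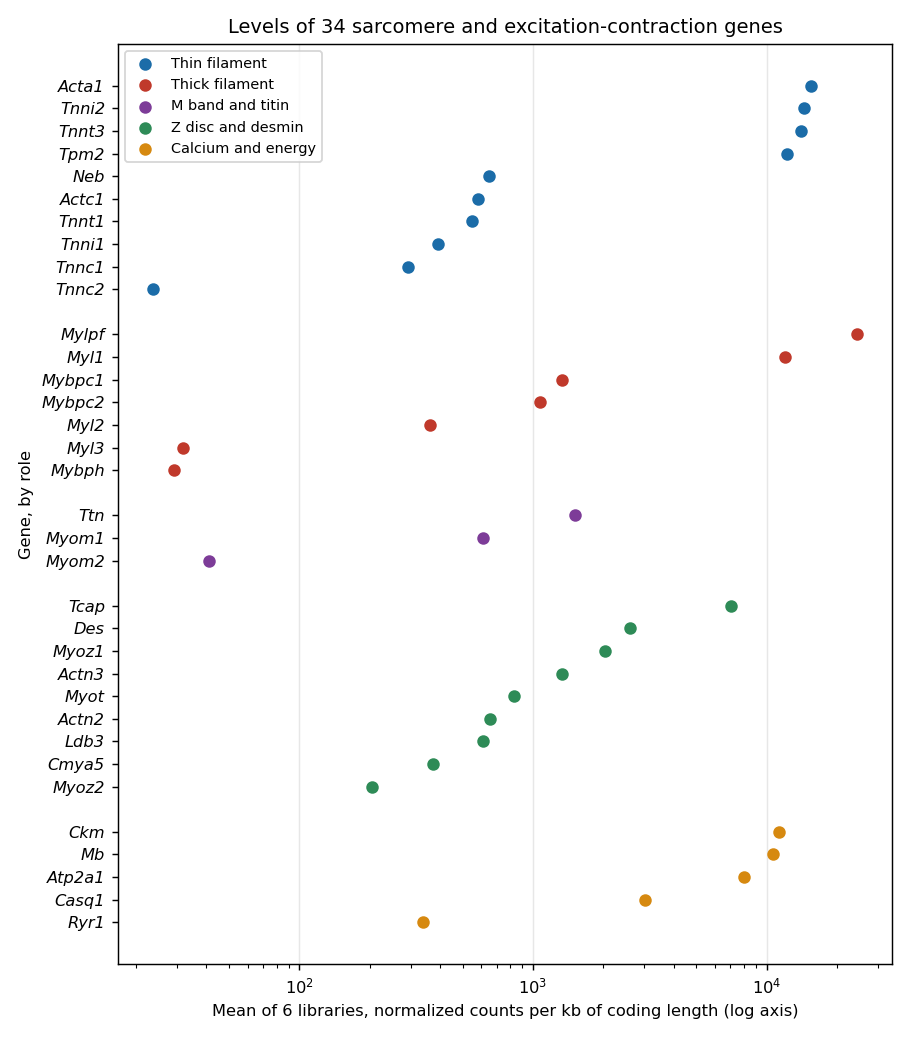
Each point is 1 gene at its mean over the 6 libraries, in normalized counts per kb of coding length on a log axis, with genes grouped and colored by role; there are no error bars because the table gives 1 mean per gene. The 8 genes past 10000 belong to the thin filament, the thick filament and the energy group, while 4 genes lie under 50.

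Per kb, the members ran from 23.6 to 24443.8 normalized counts, a 1034-fold range. The group fell into 8 genes above 10000, 9 between 1000 and 10000 and 17 at lower levels. The median of the 34 was 950.9, against 222.7 over the 16627 coding genes with a mean above 0. The plot of levels by role shows that the high genes sit in different parts of the sarcomere and that most roles also hold low genes.

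Among thin filament genes, 4 of 10 stood above 1000 normalized counts per kb. Acta1, the actin of adult skeletal muscle, on chromosome 8 at 123891769 to 123894751, had 15421.1. Tnni2 and Tnnt3, which encode the inhibitory and the tropomyosin-binding subunit of fast troponin, had 14493.7 and 13988.2. They are neighbors on chromosome 7, from 142441808 to 142444410 and from 142498836 to 142516009, with 54.4 kb between them. Tpm2, the beta tropomyosin that is also made by slow fibres and smooth muscle, had 12239.1. These 4 genes lay within a narrow band.

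A wide gap separated them from the other thin filament genes. Neb, the gene of nebulin, which runs along the thin filament, had 645.9 per kb, although its total of 13857.4 normalized counts was among the highest of the list. Actc1, the cardiac actin, had 582.5 per kb. The slow troponin genes Tnnt1, Tnni1 and Tnnc1 had 547.2, 392.5 and 290.7. Tnnc2, the calcium-binding subunit of fast troponin, was the lowest of all 34 genes, at 23.6 per kb and 11.3 normalized counts in total.

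In the thick filament group, the light chains of fast myosin stood out. Mylpf, the regulatory light chain, on chromosome 7 at 127208890 to 127214298, was the highest member per kb, at 24443.8. Myl1, the essential light chain of fast fibres, had 11948.7. The myosin-binding protein C genes were intermediate, with 1326.2 for the slow form Mybpc1 and 1075.3 for the fast form Mybpc2. The ventricular and slow light chain genes Myl2 and Myl3 had 361.9 and 31.6, and Mybph, a relative of myosin-binding protein C, had 29.1.

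At the M band, which ties thick filaments together at their middle, Myom1 had 611.2 normalized counts per kb and Myom2 had 40.9. Both encode myomesins. Their ratio cannot be set against a replicate error, but Myom2 was among the 4 members under 50.

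Z disc genes covered a smaller range than the filament genes, from 205.0 to 7071.5 normalized counts per kb over 9 genes, with a median of 826.4. Tcap, the gene of telethonin, which caps titin at the Z disc, was the highest. Des, which encodes the intermediate filament desmin and is also made by smooth muscle, had 2602.4. The fast calsarcin gene Myoz1 had 2026.4 and the actin cross-linker gene Actn3 had 1326.5.

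Of the remaining Z disc genes, Myot, which encodes myotilin, had 826.4 per kb, and Actn2, the broader alpha-actinin of striated muscle, had 654.3. Ldb3, which encodes a PDZ and LIM domain protein of the Z disc, had 613.3. Cmya5, the gene of myospryn, had 374.9 per kb, although its total of 4134.6 normalized counts was above that of Tcap. Myoz2, the slow and cardiac calsarcin, was the lowest of the 9.

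The genes of calcium handling and energy supply had the highest median of the 5 roles, 8011.8 normalized counts per kb over 5 genes. Ckm, the muscle creatine kinase, had 11319.9, and Mb, the oxygen store myoglobin, had 10620.4. Atp2a1, the calcium pump of fast fibres, had 8011.8 and, at 23891.2 normalized counts in total, was the second member after Ttn. Casq1, which binds calcium inside the store, had 3025.3. Ryr1, the calcium release channel, had 338.2 per kb at a coding length of 15.2 kb.

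Fast and slow forms were then set side by side in 8 pairs of related genes. The fast gene was higher per kb in 6 of them. The ratio was 378 for Myl1 over Myl3, 67.5 for Mylpf over Myl2, 36.9 for Tnni2 over Tnni1 and 25.6 for Tnnt3 over Tnnt1. It was smaller for the Z disc genes, at 9.89 for Myoz1 over Myoz2 and 2.03 for Actn3 over Actn2. The skeletal actin Acta1 exceeded the cardiac Actc1 by a ratio of 26.5. With the values as given, not divided by length here, the ratios were 348 for Myl1, 64.9 for Mylpf, 37.5 for Tnni2, 26.5 for Tnnt3, 11.1 for Myoz1, 2.04 for Actn3 and 26.5 for Acta1, so these pairs had the same direction on both scales.

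One pair ran the opposite way. Tnnc1 exceeded Tnnc2 by a ratio of 12.3. Among the fast troponin genes, those of the inhibitory and tropomyosin-binding subunits were thus among the highest members per kb, and that of the calcium-binding subunit was the lowest. The value of Tnnc2 rests on 11.3 normalized counts, close to the limit of 10. Tnnc2 also shares much of its sequence with an overlapping gene, as described below. Mybpc1 and Mybpc2 differed by a ratio of 1.23, which without an error for either gene gives no order.

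**Figure D2:**
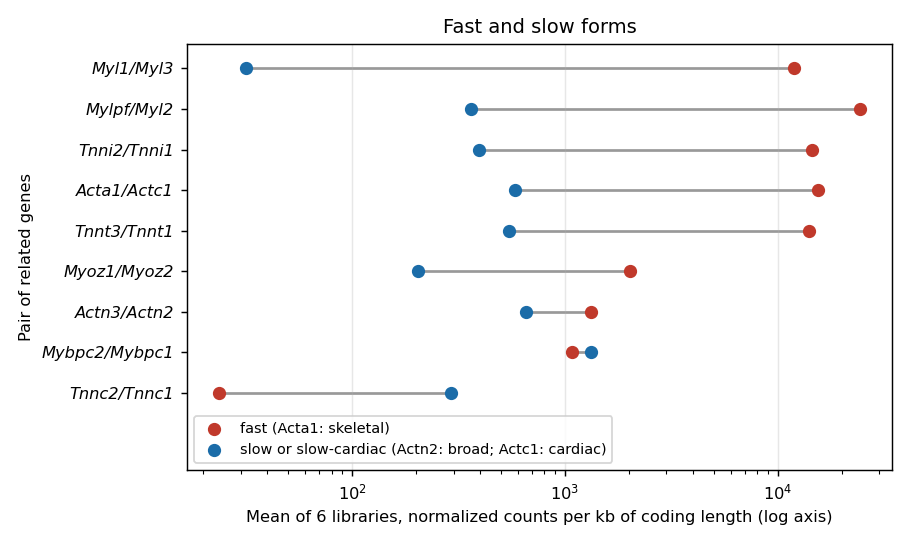
Each line joins 2 related genes at their mean over the 6 libraries, in normalized counts per kb of coding length on a log axis, with the fast (or skeletal actin) form in red and the slow or cardiac form in blue; no error can be drawn. The red point lies to the right in 6 of the 8 fast and slow pairs and in the actin pair, and to the left for Tnnc2, while the points of the Mybpc pair lie close together.

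Sequence that a gene shares with others can limit how its reads are assigned. For each member, all words of 31 bases in its annotated transcripts were compared with those of all other genes, on both strands. At least 90% of the words belonged to the gene alone for 27 of the 34 members. Of the other 7, 6 shared most with a gene that overlaps them on the opposite strand. Stranded reads can tell such genes apart where the counting uses the strand, which the sources used here do not state. Acta1 had 95.9% to itself and Actc1 had 99.2%, so the close similarity of the actins leaves most of their words distinct.

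The members with the smallest shares of their own were 2 of the 4 lowest genes. Tnnc2 had 41.0% of its words to itself, and it shared 59.0% with Ube2c, a ubiquitin-conjugating enzyme gene on the opposite strand. Tnnc2 lies on chromosome 2 at 164777161 to 164779967 and Ube2c at 164769898 to 164778822, so they overlap. Ube2c itself stood at 16 normalized counts, and both genes together gave 27.4, fewer than the 140.4 of Tnnc1. Whether the overlap bears on the level of Tnnc2 was not tested.

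Mybph had 53.7% of its words to itself and shared 46.3% with Adora1, an adenosine receptor gene on the opposite strand, which stood at 837.8 normalized counts. The part of this overlap in the level of Mybph was not tested. The other genes under 50 per kb did not share much sequence, since Myl3 had 95.9% of its words to itself and Myom2 had 98.6%. Shared words were also found at high levels. Mb had 72.3% of its words to itself and Atp2a1 had 79.7%, with 19.6% shared with Rabep2. Ckm had 86.4%. Myl1 had 85.5%, and it overlaps no partner but shared 14.5% with Mylf-ps, a processed pseudogene on chromosome 12. Cmya5, at 374.9 per kb, had 80.3%.

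**Figure D3:**
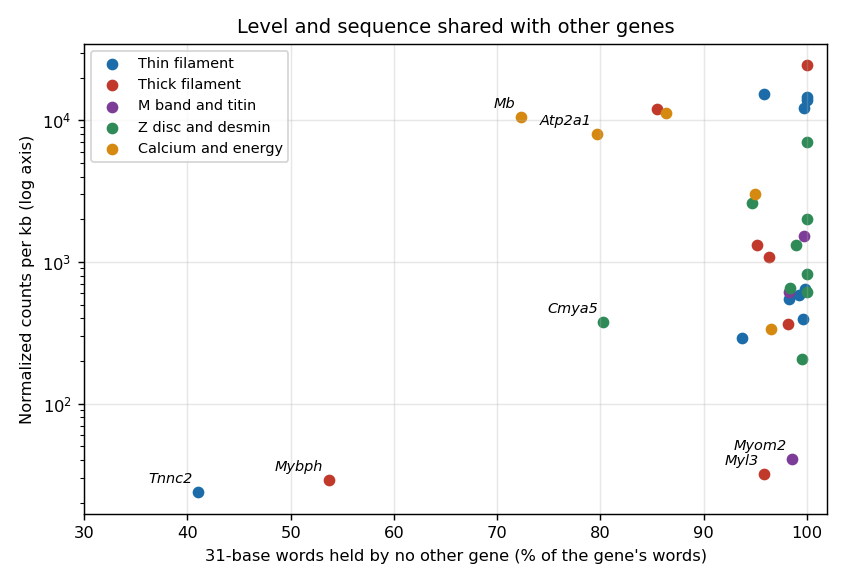
Each point is 1 gene, with the percentage of its 31-base words found in no other gene on the horizontal axis and its level in normalized counts per kb of coding length on the vertical log axis; colors give the role. Tnnc2 at 41.0% and Mybph at 53.7% sit at the lower left, while Myl3 and Myom2 are as low with nearly all words their own.

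Other genes of the sarcomere and of the triad, where the calcium store meets the cell membrane, were looked up from a list of 52 genes. All 52 were in the table, and all had at least 10 normalized counts, with a median of 318.7 per kb against 950.9 for the members. By total, the highest were Tpm1, the alpha tropomyosin, with 15171.0 normalized counts, Pvalb, the calcium buffer of fast fibres, with 10498.2, and Eno3, the muscle enolase, with 8208.0. Per kb, Pvalb had 31812.8, above every member. Tpm1 is made by many cells.

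Genes of muscle regulators and of the nerve-muscle synapse, including the acetylcholine receptor subunit genes Chrna1, Chrne and Chrng, had a median of 20.2 normalized counts per kb over 11 genes, of which 6 reached 10 normalized counts in total. The highest by total were Mef2c, a transcription factor that endothelium and other cells also make, with 3469.3 normalized counts, Musk, a kinase of the nerve-muscle synapse, with 180.7, and Myf6, a factor of mature fibres, with 129.2. Per kb these had 2389.3, 67.4 and 177.9, so Mef2c lay above the member median of 950.9. On the totals as given, Mef2c lay below the member median of 3621.5.

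Smooth muscle and pericyte genes, which mark the walls of choroidal vessels and share Des and Tpm2 with striated muscle, had a median of 492.8 normalized counts per kb over 13 genes, under the 950.9 of the members. Rgs5, a pericyte gene, had 21345.8 normalized counts, Pdgfrb, the receptor for platelet-derived growth factor, 4839.2, and Acta2, the smooth muscle actin, 3453.2. Per kb, Acta2 had 3053.2, below the 15421.1 of Acta1 and above the 582.5 of Actc1. The part of smooth muscle in the levels of Des and Tpm2 was not tested.

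RPE markers had a median of 31610.6 normalized counts per kb over 7 genes, led by Ttr with 99321.5 normalized counts, Rgr with 92190.1 and Rpe65, the retinoid isomerase, with 43744.9. Best1, an RPE chloride channel, was singled out after its value was seen, and it stood at 69.8. Genes of the melanocyte list, most of which pigmented RPE cells also make, had a median of 30705.0 per kb, and their highest were Dct with 89144.9 normalized counts, Tyrp1 with 59378.9 and Pmel with 57664.0. Per kb, Mylpf, the highest member at 24443.8, lay below 5 of the 7 RPE markers, among them Rpe65 with 27357.7, and above Rdh5 with 10530.1 and Best1 with 42.2. With the totals as given, the highest member was Ttn, whose 160212.6 lay above every RPE marker.

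Endothelial and macrophage markers had lower medians per kb than those of RPE. Endothelial markers had a median of 741.4 normalized counts per kb, under the 950.9 of the members, with Kdr at 6377.3, Plvap at 2359.1 and Tie1 at 2174.5 normalized counts. The 3 macrophage markers Csf1r, Adgre1 and Cd68 had 4062.6, 3120.8 and 1223.6 normalized counts. Their median per kb was 1217.5, above the 950.9 of the members. On the totals as given, their median of 3120.8 lay below the 3621.5 of the members. No gene of these marker lists stood at 0.

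**Figure D4:**
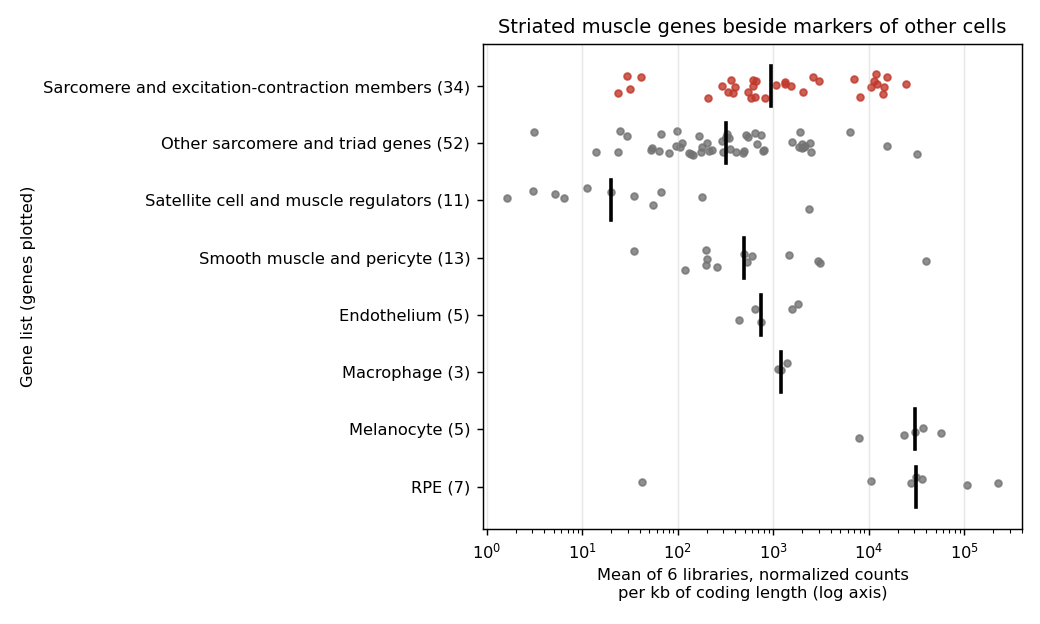
Each point is 1 gene at its mean over the 6 libraries, in normalized counts per kb of coding length on a log axis, by gene list, with the number of genes in brackets, the median as a black bar and random vertical offsets. The striated muscle members, in red, reach from 23.6 to 24443.8, below the RPE median of 31610.6, and the genes of muscle regulators and the synapse have the lowest median. On the totals as given, Ttn lies above every RPE marker.

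The members are spread over 16 chromosomes. Chromosome 7 holds 8 of them, Atp2a1, Ckm, Mybpc2, Mylpf, Ryr1, Tnni2, Tnnt1 and Tnnt3, and Tnni2 and Tnnt3 were the closest neighbors of the list. Across the 34 genes, the rank correlation of the level per kb with coding length was -0.12, and that of the total with coding length was 0.30. Both are descriptions over genes measured in the same libraries.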

How the data were processed

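Total RNA of RPE/choroid from 3 young and 3 aged mice was sequenced. The authors used BBDuk for trimming, STAR for alignment to GRCm38 transcripts from Ensembl and Sailfish for abundances, whose TPM values (abundances divided by length) were turned into normalized counts by total count. The deposited signal, a mean of normalized counts over all 6 libraries, is never negative. The study calls the values read counts but describes no step that puts length back; the signal is treated as undivided, and if it is not, the values as given are the levels per length. The 5 remaining columns hold the authors' DESeq2 comparison (fold change, its standard error, statistic, p-value and adjusted p-value) and were not used. Depth per library is unknown, and no test or simulation applies to 1 mean per gene.

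Coding and transcript lengths and words of 31 bases came from GENCODE M21 (GRCm38), where all 34 members were matched, with pandas 2.3.3 and Python 3.11.15. Another symbol was used for 4 genes of the other lists (Klhl40, Klhl41, Mymk and Adgre1). The helper functions were tested on made data. Members, lists, roles and pairs were chosen with earlier results of these data known. All members are named, and from each other list the 3 genes with the highest mean. Pvalb per kb, Rdh5, Best1, Chrna1, Chrne, Chrng, Mylf-ps, Ube2c, Adora1 and Rabep2 were added after their values were seen, and 1 marker list is not reported here. The alternatives tried are other limits, lengths, backgrounds and a pseudocount of 1.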

Additional observations from a re-analysis of the deposited data

How the results depend on the processing

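No paired analysis was possible because only 1 mean over all libraries was used, so the comparison of aged with young mice and its fits without each replicate were not run. The number of members at the limit of 10 was 34 with a limit of 1 and 31 with a limit of 100. The number above the median of the table, 31, was 26 against genes with a mean of at least 10 and 29 per kb. The fast gene was higher in 6 pairs with values as given, per kb of the longest transcript, with a pseudocount of 1, and, in an alternative chosen after seeing the data, among the 7 pairs left without Tnnc2 and Tnnc1. The share of the summed signal, 1.7%, was 0.927% without the 10 most abundant genes, which include Ttn, 1.08% per kb among coding genes and 0.862% without Ttn, also chosen after seeing the data. The median levels by role were, with values as given, 4460.1 for the thin filament, 3664.7 for the thick filament, 3056.7 for the M band and titin, 1799.4 for the Z disc and 5134.8 for calcium and energy. Per kb of the longest transcript they were 531.7, 1014.9, 541.2, 582.4 and 4444.4 in that order. The calcium and energy genes had the highest median on each of these scales. With only members of at least 10 normalized counts, the role medians were identical, as no member was left out.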
